A study of Mus musculus with 19 samples.

Results

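The nuclear genes of oxidative phosphorylation were examined in 4 groups of mouse spleen cells. Members were chosen by symbol alone, as the genes of the table whose names mark them as subunits of respiratory complexes I to IV or of the ATP synthase (Nduf, Sdh, Uqcr, Cox4 to Cox8 and Atp5 symbols). Symbols containing -ps were left out, which removed 4. This gave 84 of the 38887 genes in the table: 37 for complex I, 4 for complex II, 8 for complex III, 18 for complex IV and 17 for complex V. All 84 were protein-coding genes in the annotation.

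The cells were myeloid-derived suppressor cells (MDSC), myeloid cells that can restrain T cells. PMN-MDSC are the neutrophil-like form, taken as CD11b+ cells with Ly6G and intermediate Ly6C. M-MDSC are the monocyte-like form, taken as CD11b+ cells with high Ly6C and no Ly6G. Both came from the spleens of newborn mice aged 7 days or of adult mice aged 6 to 8 weeks; no strain, genotype or treatment is used to set the groups apart. RNA was sequenced in 19 libraries. PMN-MDSC gave 6 adult and 5 newborn libraries, and M-MDSC gave 3 adult and 5 newborn ones. No label says that replicates are different animals; p-values therefore measure only the spread between libraries, part of which may be technical. Sex is in no label. Kdm5d, on the Y chromosome, was at 0 in all 9 adult libraries and at 1.28 to 20.2 CPM in the 10 newborn ones, and Xist, made from an inactive X chromosome, was at 555 to 2154 CPM in adults and 63.1 to 525 CPM in newborns. Age and the mix of sexes therefore cannot be told apart in the age comparisons below.

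Oxidative phosphorylation is the process by which mitochondria make most of their ATP. Complexes I and II take electrons from NADH and succinate, complex III passes them to cytochrome c, and complex IV passes them to oxygen. Complexes I, III and IV pump protons as they do so, and complex V, the ATP synthase, uses the returning protons to make ATP. Most subunits are encoded in the nucleus and a few on mitochondrial DNA; the latter were not analysed here. Mature neutrophils are known for relying mainly on glycolysis and for having few mitochondria, while their precursors and monocytes use respiration more.

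Levels are given in CPM, the usual count relative to library size, after TMM scaling, which corrects each library for a few genes taking a large share of its reads. A gene was called where the adjusted p of edgeR's quasi-likelihood test was under 0.05 over all 12943 genes tested, and "rose" or "higher" is used of called genes. Each group had libraries of both batches. The 10 batch 1 libraries held 827744 to 2965896 counts each, and the 9 of batch 2 held 14026193 to 45135933. The cell type labels held at the level of RNA for Ly6g and Ccr2. Ly6g averaged 19.6 CPM in PMN-MDSC of adults and 213 CPM in those of newborns, and under 1 CPM in both M-MDSC groups. Ccr2, a monocyte receptor, averaged 552 and 612 CPM in adult and newborn M-MDSC and 14.4 and 4.93 CPM in PMN-MDSC. Other genes went the same way within each age but were less apart. Csf1r averaged 696 and 517 CPM in adult and newborn PMN-MDSC and 2290 and 954 CPM in M-MDSC. In the same order, Ly6c2 averaged 40.4 and 442 CPM against 514 and 698 CPM, and S100a8 2499 and 20177 CPM against 92.0 and 1709 CPM. Camp averaged 193 and 8201 CPM against 114 and 1250 CPM. Among PMN-MDSC libraries, 5 pairs made of 1 library from each batch were close. Their deviations from the mean of their group and batch correlated at 0.33 to 0.51 across genes, against -0.36 to 0.13 for the 10 other pairs. Newborn batch 1 holds only replicates 2 and 3, whose deviations mirror each other. The newborn values of -0.36 and -0.33 therefore only restate those of the close pairs. Adult replicate 1 was close to 32, replicate 2 to 33 and replicate 3 to 34, while among newborns replicate 2 was close to 37 and replicate 3 to 38. Such pairs may not be independent, so the count without the batch 1 PMN-MDSC libraries stands beside that of each comparison. The n, SD, SE and adjusted p of single genes below treat all PMN-MDSC libraries as separate. Those SE and p may therefore be too small. In M-MDSC, adult replicate 28 and newborn replicate 2 stood apart from their groups in the summed level of the 84 genes.

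Of the 84 genes, 72 passed the filter on low counts and were tested. The other 12 were Ndufa4l2, Ndufa5, Cox4i2, Cox6a2, Cox7a1, Cox7b2, Cox8b, Cox8c, Atp5g2, Atp5j2, Atp5l and Atp5s. Most of these are isoforms known from other tissues, such as Cox6a2, Cox7a1 and Cox8b of muscle and Cox7b2 and Cox8c of testis. Cox8b, Cox8c and Atp5g2 had 0 counts in all 19 libraries. A gene that passed the filter only through the group where it is high had to differ, so the counts below describe the 72 genes and not all 84.

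Atp5g2 and Atp5l are not restricted isoforms. Atp5g2 encodes a copy of the c subunit, whose ring turns in the membrane part of the ATP synthase, and Atp5l encodes subunit g of the same part. Their low counts came with high counts in rows of pseudogenes with the same letters. Atp5g2 had 0 counts against 11508 in Gm10175, an annotated transcribed processed pseudogene at chr7:23946646-23947290 of GRCm38. Atp5l had 26 counts, all in newborn M-MDSC replicate 3, against 20507 in Gm10221, a processed pseudogene at chr5:24581554-24581862. Over the 438 coding bases of Atp5g2 and the 309 of Atp5l there was no mismatch. The 50-base reads of this study cannot be told apart within such stretches, so the rows share one signal. The stretches below show the first 90 coding bases, which each gene and its pseudogene share letter for letter, and, for Ndufa12, 90 bases with the mismatch in capitals.
Atp5g2 and Gm10175: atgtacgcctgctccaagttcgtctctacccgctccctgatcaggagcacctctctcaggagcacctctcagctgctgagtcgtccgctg
Atp5l and Gm10221: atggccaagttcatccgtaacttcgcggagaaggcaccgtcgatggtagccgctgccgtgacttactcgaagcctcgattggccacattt
Cox7c and Gm12338: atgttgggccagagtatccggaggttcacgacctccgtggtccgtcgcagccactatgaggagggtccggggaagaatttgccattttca
Ndufa12: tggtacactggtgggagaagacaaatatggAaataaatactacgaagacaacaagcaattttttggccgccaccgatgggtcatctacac
Gm15920: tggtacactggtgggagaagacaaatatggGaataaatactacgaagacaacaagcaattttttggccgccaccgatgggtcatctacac
Cox7c encodes a small subunit of complex IV. It had 3105 counts against 10361 in Gm12338 at chr11:75599763-75599954, with no mismatch over all 189 coding bases. Ndufa12, an accessory subunit of complex I, had 617 counts against 1332 in Gm15920 at chr5:130188395-130188796, with 2 mismatches over 399 compared bases; the one shown is A135G, counted from the first coding base.

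In all, 20 of the 84 genes had at least 1 pseudogene row of 95% identity or more over 100 bases or more. For 8 of them these rows held over 10% of the summed counts: 100% for Atp5g2, 99.9% for Atp5l, 78.7% for Cox7c, 68.3% for Ndufa12, 68.2% for Ndufb4, 61.5% for Ndufs5, 15.1% for Atp5g1 and 12.6% for Uqcrb. For 5 of the 20 the copies had 0 counts. Levels and differences of these 8 genes are uncertain, and values with gene and copies summed are given where a call differs.

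**Figure D1:**
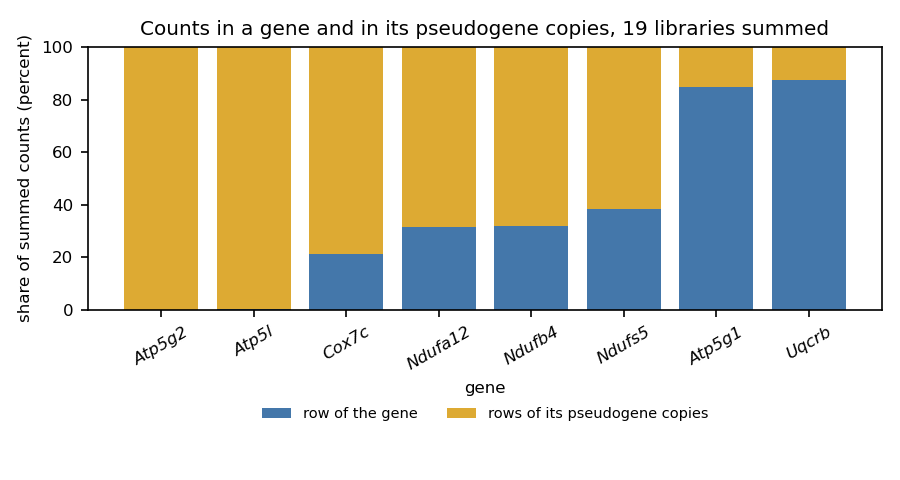
Share of counts, in percent, in the row of each gene and in the rows of its pseudogene copies, with 19 libraries summed, for the 8 genes whose copies held over 10%. The copies held all counts for Atp5g2 and 99.9% for Atp5l, and 12.6% for Uqcrb.

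Summed over all members, the 84 genes were lowest in adult PMN-MDSC. Their summed level was 2439 ± 125 CPM in adult PMN-MDSC (SD, n = 6) against 3719 ± 109 CPM in newborn ones (n = 5). In M-MDSC it was 3645 ± 889 CPM for adults (n = 3) and 5494 ± 1216 CPM for newborns (n = 5). The adult PMN-MDSC libraries lay between 2287 and 2562 CPM and the newborn ones between 3605 and 3847 CPM, so these groups did not overlap. In M-MDSC the adult libraries were at 3187, 3078 and 4670 CPM, the last being replicate 28, and the newborn ones at 4919, 7499, 5703, 4375 and 4973 CPM, the highest being replicate 2. The M-MDSC groups therefore overlapped: in batch 2 the only adult library, 4670 CPM, lay between the newborn ones of that batch, while in batch 1 every newborn library was above both adult ones. In these bulk samples, fewer cells with many mitochondria and less RNA per cell cannot be told apart.

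**Figure D2:**
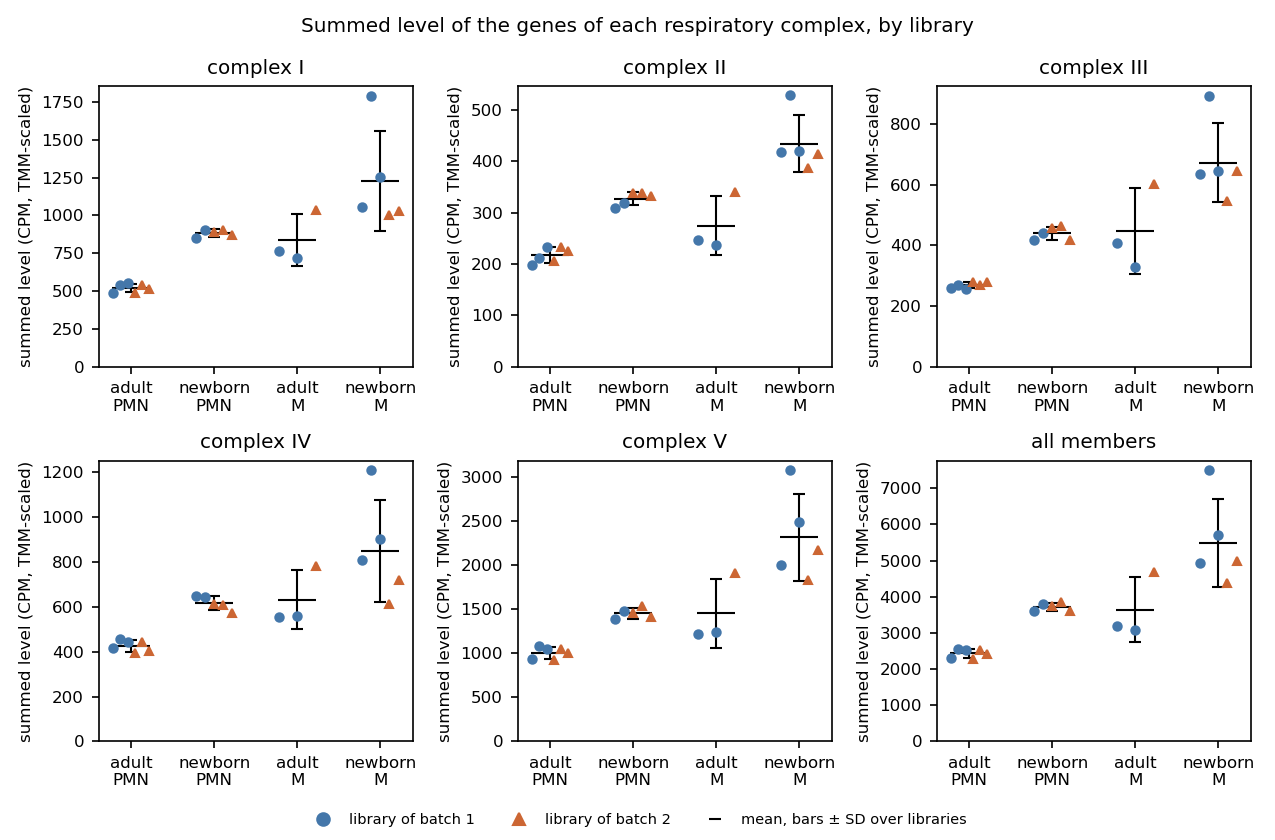
Summed level in CPM (TMM-scaled) of the genes of each complex and of all 84, with 1 point per library, circles for batch 1 and triangles for batch 2; the horizontal mark is the mean and the bars are the SD over libraries. The PMN-MDSC groups do not overlap in any panel, while adult M-MDSC replicate 28 lies among or near the newborn M-MDSC libraries.

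The scaling bears on this difference in PMN-MDSC. Without TMM scaling the PMN-MDSC sums were 2771 CPM for adults and 2909 CPM for newborns, with 3867 and 5667 CPM in M-MDSC. Relative to library size alone, the median of all 12943 genes lay at -0.59 on the log2 scale in newborn against adult PMN-MDSC, while with TMM scaling it lay at -0.05. In the same libraries the summed level of 10 neutrophil genes was 88825 to 98769 CPM for newborns and 9352 to 10102 CPM for adults. Age differences in PMN-MDSC below are therefore relative to the middle of the other genes, and not shares of all RNA.

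The complexes kept similar shares of the sum. In PMN-MDSC complex V held 41.2% of it for adults and 39.0% for newborns, and in M-MDSC 39.8% and 42.1%. Complex I held 21.4%, 23.8%, 23.0% and 22.3% in the same order. Per kilobase of transcript, mean levels in adult PMN-MDSC were 148 CPM per kilobase for Atp5b and 123 for Atp5a1, the beta and alpha subunits of the catalytic head of the ATP synthase, and 115 for Cox4i1, the largest nuclear subunit of complex IV. In newborn M-MDSC the same 3 genes were at 352, 339 and 268 CPM per kilobase.

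In newborn against adult PMN-MDSC, 41 of the 72 tested genes rose and 1 fell. Over all genes tested, 27.1% were called higher and 20.5% lower. The median log2 fold change of the 72 was 0.72, against -0.05 over all genes, and 64 of 72 were above 0. In 40 genes every newborn library lay above every adult one, and in 1 every one lay below; over all genes the shares were 28.4% and 23.0%. The direction was the same in both batches for 40 of the 41. Without the batch 1 PMN-MDSC libraries 22 genes were higher, all among the 41, and 1 lower. In that fit 2531 of 15926 genes were higher and 1209 lower. Relative to library size alone 15 were higher, all among the 41, and 6 lower. By that scaling 1917 of all 12943 genes were higher and 4701 lower. The size of the count thus rests on the scaling, for these genes and for all genes.

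Complex I, which oxidises NADH, had 20 of 35 tested genes higher in newborn PMN-MDSC (median log2 fold change 0.75). Ndufv3, an accessory subunit of its NADH-binding part, was at 5.40 to 10.3 CPM in the 6 adult libraries (median 8.66) and at 29.0, 34.2, 29.7, 34.9 and 28.5 CPM in the 5 newborn ones. Its log2 fold change was 1.89 ± 0.30 (SE; adjusted p = 4.27e-05). The lowest newborn library of Ndufv3 lay far above the highest adult one. Ndufa8, an accessory subunit, was at 16.4 to 22.8 CPM in adults (median 17.9) and at 62.9, 52.7, 57.5, 54.4 and 46.2 CPM in newborns. Ndufa8 rose by 1.56 ± 0.19 on the log2 scale (SE; adjusted p = 2.25e-06), with the groups apart. Core subunits were split. Ndufv1, which binds NADH, rose by 0.84 on the log2 scale, Ndufv2 by 1.21, Ndufs1 by 0.37 and Ndufs8 by 0.59. Of 36 alternative settings, 32 called Ndufv1 higher and 34 Ndufv2, but only 16 called Ndufs1 and 18 Ndufs8. Ndufs3 and Ndufs7 stood at 0.20 (adjusted p = 0.567) and 0.56 (adjusted p = 0.124). Of the 15 complex I genes not called, 13 were above 0.

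Complex II, succinate dehydrogenase, is also an enzyme of the TCA cycle and is wholly encoded in the nucleus. Of its 4 genes 3 rose in newborn PMN-MDSC. The membrane anchors Sdhc and Sdhd rose by 1.06 and 1.03 on the log2 scale, and the iron-sulfur subunit Sdhb by 0.72. Sdhc was at 15.3 to 24.5 CPM in adults (median 19.7) and at 44.3, 45.8, 40.3, 43.6 and 36.1 CPM in newborns, with no overlap. Sdha, the flavoprotein that binds succinate, was at 105 ± 18.6 CPM in adults (SD, n = 6) and 117 ± 8.11 CPM in newborns (SD, n = 5), and was not called (0.13 ± 0.12, SE; adjusted p = 0.406). Relative to library size alone Sdha was called lower, at -0.42 (adjusted p = 0.0304).

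Complex III, which hands electrons to cytochrome c, had 5 of 8 genes higher in newborn PMN-MDSC. Uqcrc1, a core protein of the complex, was at 61.7 to 66.9 CPM in the adult libraries (median 65.1) and at 127, 145, 137, 138 and 120 CPM in the newborn ones. Its log2 fold change was 1.04 ± 0.14 (SE; adjusted p = 5.02e-06), and the adult libraries spanned a narrow range well below the newborn ones. Uqcrc2, the other core protein, rose by 0.78, and Uqcrfs1, the Rieske iron-sulfur protein, by 0.44. Uqcrc2 was called higher under 33 of 36 alternative settings and Uqcrfs1 under 22. The small subunit Uqcr10 rose by 1.37. Uqcrh, the hinge protein, was at -0.23 (adjusted p = 0.51), Uqcrb at 0.02 and Uqcr11 at 1.19 (adjusted p = 0.175).

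Complex IV, cytochrome c oxidase, had 8 of 12 tested genes higher in newborn PMN-MDSC. Cox6a1, the ubiquitous form of subunit VIa, was at 13.5 to 21.1 CPM in adults (median 16.6) and at 54.2, 36.8, 47.4, 34.3 and 36.1 CPM in newborns. Cox6a1 rose by 1.30 ± 0.27 on the log2 scale (SE; adjusted p = 6.72e-04), with no overlap. Cox7b rose by 1.05, Cox7a2 by 1.00, Cox5a by 0.81, Cox6b1 by 0.74, Cox8a by 0.73 and Cox4i1 by 0.60. Cox4i1 was called higher under 21 of 36 alternative settings. Cox8a overlapped between the ages. The genes not called were Cox6c at 0.12 (adjusted p = 0.572), Cox5b at 0.72 (adjusted p = 0.526), Cox7a2l at -0.07 (adjusted p = 0.706), and Cox7c. Cox7a2l encodes a factor that joins complexes III and IV rather than a plain subunit. Ndufa4, whose protein is now counted with complex IV despite its symbol, rose by 0.85.

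Cox7c and Cox6b2 need separate mention. Cox7c stood at -0.55 (adjusted p = 0.422) in newborn against adult PMN-MDSC by its own row, and at 1.14 (adjusted p = 0.00318) with its pseudogene rows summed in. The sum of copies also called Ndufb4, at 1.19 (adjusted p = 0.0181), and Atp5l, at 0.71 (adjusted p = 0.00131), neither of which was called by its own row. Cox6b2, the testis isoform of subunit VIb, had 8 counts in adult PMN-MDSC, all in replicate 34. In newborn PMN-MDSC it was at 1.64, 3.89, 4.47, 2.83 and 4.58 CPM. Its fitted log2 fold change was 5.67 ± 1.16 (SE). Being near 0 in adults, it passed the filter through libraries where it was high and had to differ. Its call, counted among the 41 genes that rose and the 8 of complex IV, is therefore no test. The levels of Cox6b2 stayed below those of the common form Cox6b1, which averaged 33.7 and 55.9 CPM in adults and newborns.

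Complex V, the ATP synthase, had 5 of 13 tested genes higher and 1 lower in newborn PMN-MDSC. The peripheral stalk, which holds the catalytic head still, had Atp5f1 (subunit b) at 1.05, Atp5h (subunit d) at 1.00 and Atp5o (OSCP) at 0.88, all 3 called higher. Atp5h was at 54.6 to 68.5 CPM in adults (median 61.3) and at 131, 109, 134, 118 and 125 CPM in newborns. In the catalytic head, Atp5b rose by 0.70 and Atp5a1 by 0.37. Atp5b was called higher under 33 of 36 alternative settings and Atp5a1 under 24. The central stalk genes Atp5c1, Atp5d and Atp5e were at 0.67 (adjusted p = 0.0782), 0.36 and -0.07 and were not called. The c-ring genes Atp5g1 and Atp5g3 were at -0.42 (adjusted p = 0.243) and 0.51 (adjusted p = 0.0661). Relative to library size alone Atp5a1 lay at -0.17 (adjusted p = 0.233).

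Atp5sl fell in newborn PMN-MDSC. Of the 36 alternatives, 2 called other members lower as well: Atp5g1 and Uqcrh in the fit on PMN-MDSC libraries alone, and these with Cox6c, Cox7a2l and Sdha relative to library size alone. It was at 30.9 to 51.0 CPM in adults (median 35.3) and at 18.1, 10.8, 11.3, 12.5 and 12.1 CPM in newborns, and the groups did not overlap. Its log2 fold change was -1.57 ± 0.23 (SE; adjusted p = 1.46e-05). Despite its symbol its protein is known as Dmac2, an assembly factor of complex I, and not as a subunit of the ATP synthase. It was called lower in PMN-MDSC under all 36 alternatives tried, with values from -2.12 to -1.45. The gene lies at chr7:25619414-25625551 of GRCm38 on the plus strand and shared none of its 50-base stretches with other transcripts.

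**Figure D3:**
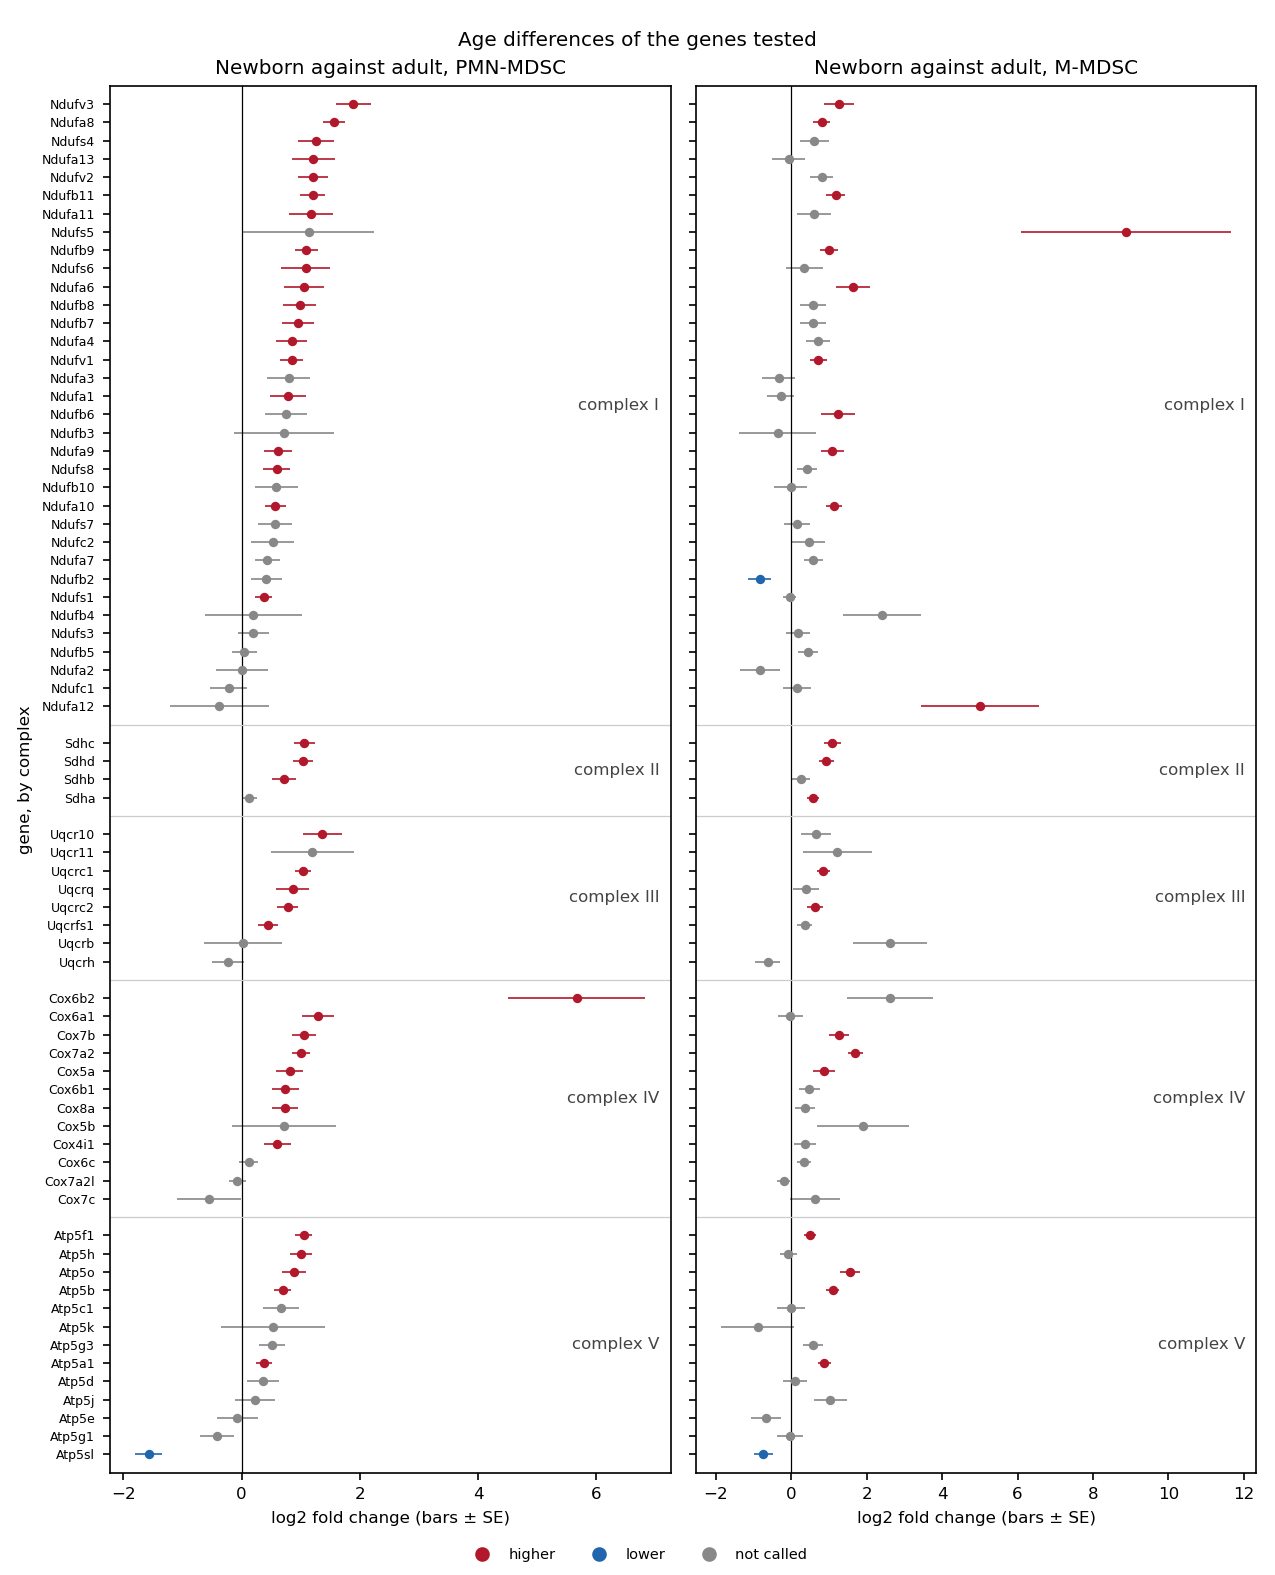
Log2 fold change of newborn against adult with its SE for tested genes, ordered within each complex by the value in PMN-MDSC; left, PMN-MDSC, right, M-MDSC, on axes of different range. Red genes were called higher and blue ones lower, the latter being Atp5sl in both panels and Ndufb2 in M-MDSC.

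In newborn against adult M-MDSC, 24 of the 72 genes rose and 2 fell. Over all genes tested, 15.9% were called higher and 14.3% lower. The median of the 72 was 0.57, against 0.01 over all genes, and 55 were above 0. Every newborn library lay above every adult one in 15 genes, and below in none, against 12.8% and 10.4% of all genes. In batch 1 alone 29 genes were higher and none lower (median 0.92), against 1621 and 1708 of 11979 genes (median -0.01). In batch 2 alone the median of the members was 0.12, against 0.19 over all genes. Batch 2 has 1 adult M-MDSC library, whose spread was taken from the other groups, and the difference between batches was not tested. Without the batch 1 PMN-MDSC libraries 18 were higher, all among the 24, and 0 lower. In that fit 1440 of 15926 genes were higher and 1386 lower. Without adult replicate 28, 31 were higher and none lower, and without newborn replicate 2, 17 were higher and 2 lower. Fitted on the M-MDSC libraries alone, 5 were higher and none lower.

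By complex, 12 of 35 genes of complex I were higher in newborn M-MDSC and 1 lower, 3 of 4 of complex II, 2 of 8 of complex III, 3 of 12 of complex IV, and 4 of 13 of complex V with 1 lower. Cox7a2, a small subunit of complex IV, was at 15.9, 25.3 and 16.8 CPM in the adult libraries and at 51.5, 67.3, 73.7, 50.5 and 70.5 CPM in the newborn ones. Its log2 fold change was 1.70 ± 0.20 (SE; adjusted p = 5.92e-06). Atp5o, of the peripheral stalk, was at 36.7, 48.1 and 37.7 CPM in adults and at 87.3, 194, 149, 66.0 and 114 CPM in newborns. It rose by 1.57 ± 0.26 on the log2 scale (SE; adjusted p = 1.89e-04). Neither gene overlapped between the ages, adult replicate 28 included.

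Other genes that rose in newborn M-MDSC were the catalytic head subunits Atp5b (1.09) and Atp5a1 (0.87), Sdhc (1.09), Sdhd (0.93) and Sdha (0.57) of complex II, Uqcrc1 (0.85) and Uqcrc2 (0.63) of complex III, and Cox7b (1.27) and Cox5a (0.87) of complex IV. Uqcrc2 was at -0.13 in batch 2 alone. It was called higher under 14 of 36 alternatives, and Cox5a under 20. With copies summed, Atp5l rose as well, by 0.62 (adjusted p = 0.0237). In complex I, Ndufa6 rose by 1.64, Ndufv3 by 1.26, Ndufb11 by 1.17, Ndufa10 by 1.13 and Ndufb9 by 0.99. Atp5sl fell here too, at -0.74 ± 0.26 (SE; adjusted p = 0.0373), though its groups overlapped, and it was called under 23 of 36 alternatives. The other gene that fell was Ndufb2.

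The largest fitted rises in M-MDSC were those of Ndufs5 and Ndufa12, genes with pseudogene copies and few counts. In M-MDSC, Ndufs5 had 0 counts over the adult libraries and 102 over the newborn ones, at least 14.1-fold higher against a floor of 3 counts over the group, while 2 of the 5 newborn libraries were at 0. With its copy summed in, its log2 fold change was 1.77 (adjusted p = 0.0317). Ndufa12 had 1 count in adult and 59 in newborn M-MDSC, a ratio of 24.5 (95% exact binomial interval 4.23 to 983). With its copy summed in it stood at 1.32 (adjusted p = 0.0891). Such intervals and floors cover counting error only.

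Across both cell types, 20 of the 72 genes were called higher in newborns in both, against 11.4% of all genes tested, and 21 were called higher in PMN-MDSC and not in M-MDSC, against 15.02%. Another 4 were called higher in M-MDSC and not in PMN-MDSC (4.06% of all genes), Ndufb2 was lower in M-MDSC and not called in PMN-MDSC (5.09%), Atp5sl was lower in both (8.48%), and 25 were called in neither (43.2%). A call in 1 cell type and not in the other is no test of a difference, so the difference of the age effects was tested itself. Over the 72 genes 1 was called higher and 3 lower in M-MDSC than in PMN-MDSC, against 6.61% and 11.5% of all genes. The median difference was -0.14, against -0.06 over all genes. Without the batch 1 PMN-MDSC libraries 0 were called higher and 0 lower. Relative to library size alone 8 were called higher and none lower, with a median of 0.37. By that scaling 2004 of all 12943 genes were called higher and 642 lower, with a median of 0.46. Over the whole set the sign of the median thus turned with the scaling, as it did for all genes. The median of the 72 lay below that of all genes under both scalings.

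The 3 genes with a lower age effect in M-MDSC were Cox6a1, Atp5h and Ndufb2. For Cox6a1 the difference was -1.32 ± 0.42 (SE; adjusted p = 0.0358), for Atp5h -1.08 ± 0.30 (SE; adjusted p = 0.0157) and for Ndufb2 -1.26 ± 0.41 (SE; adjusted p = 0.0378). Cox6a1 in M-MDSC was at 52.6, 26.1 and 52.2 CPM for adults and at 27.4, 87.9, 44.9, 33.6 and 29.3 CPM for newborns. Atp5h was at 135, 83.4 and 206 CPM in adult and at 122, 165, 171, 95.5 and 121 CPM in newborn M-MDSC. For both genes adult PMN-MDSC was the low group, and the other 3 groups overlapped. Ndufb2, an accessory subunit of complex I, was at 94.3, 27.8 and 46.4 CPM in adult and at 25.5, 53.9, 22.7, 30.4 and 21.7 CPM in newborn M-MDSC. It fell there by 0.84 on the log2 scale (adjusted p = 0.0478), while in PMN-MDSC it was at 0.41 (adjusted p = 0.205).

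Without the batch 1 PMN-MDSC libraries the differences were -1.42 for Cox6a1 (adjusted p = 0.145), -1.20 for Atp5h (adjusted p = 0.0844) and -1.27 for Ndufb2 (adjusted p = 0.208), and none of these 3 was called. The values also varied between batches. In M-MDSC, Cox6a1 was at 0.43 in batch 1 and -0.68 in batch 2, and Atp5h at 0.48 and -0.86, so adult replicate 28 bears on both. Without that library their differences were -1.02 and -0.67 and were not called. For Ndufb2 the difference was -1.38 in batch 1 and -1.18 in batch 2. It was called under 18 of 36 alternatives and stood at -0.80, not called, without adult M-MDSC replicate 1. Ndufb2 overlaps the genes Braf and Gm16272 in the annotation, and no source used here says whether counting was by strand. The only gene with a higher age effect in M-MDSC was Ndufa12, at 5.37 by its own row (adjusted p = 0.0434) and at 0.96 (adjusted p = 0.392) with its copy summed in.

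**Figure D4:**
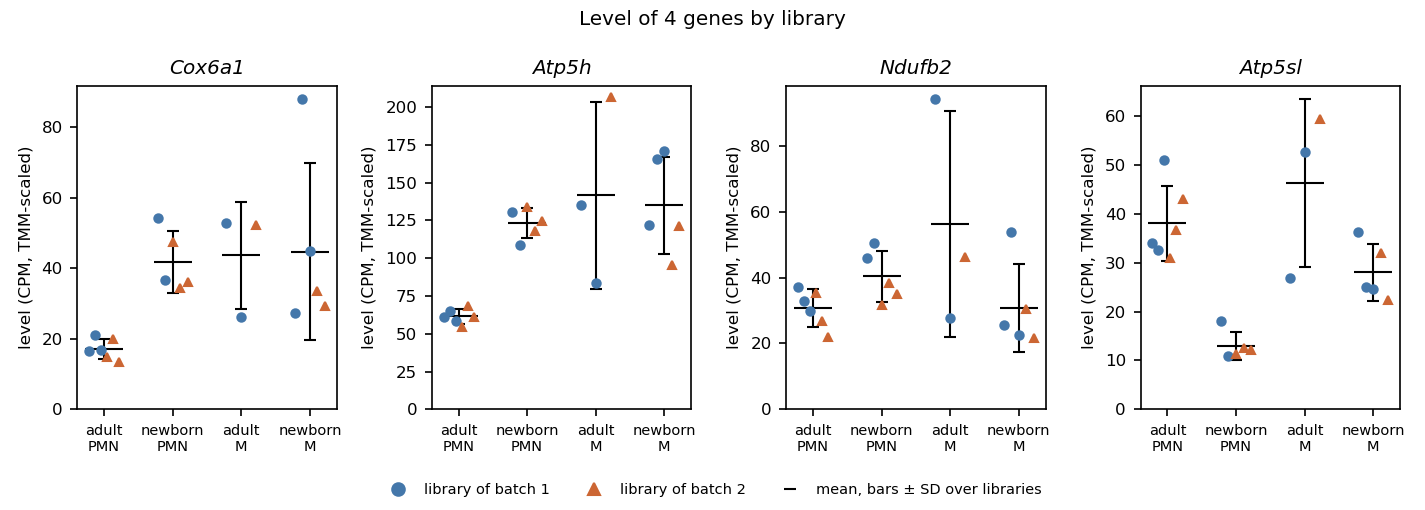
Level in CPM (TMM-scaled) of Cox6a1, Atp5h, Ndufb2 and Atp5sl in each library, with circles for batch 1, triangles for batch 2, and the mean with its SD. Adult PMN-MDSC libraries of Cox6a1 (13.5 to 21.1) and Atp5h (54.6 to 68.5) lie below all others, and newborn PMN-MDSC libraries of Atp5sl (10.8 to 18.1) lie below all others.

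The sequences before the starts of these 3 genes are shown because they were the members whose age effects were called lower in M-MDSC. They are from RefSeq promoters on GRCm38.p6, 5′ to 3′ on the gene's strand, and show, of the 250 bases before each RefSeq start, the longest run that lies in no annotated exon of GENCODE M21. Capitals mark the motif of NRF1 (GCGCA and GCGC with any base between), a factor known to activate many respiratory chain genes, or the cyclic AMP response element (TGACGTCA). Cox6a1 is shown at chr5:115348982-115349129 on the minus strand, Atp5h at chr11:115419963-115420127 on the minus strand and Ndufb2 at chr6:39592315-39592564 on the plus strand.
Cox6a1: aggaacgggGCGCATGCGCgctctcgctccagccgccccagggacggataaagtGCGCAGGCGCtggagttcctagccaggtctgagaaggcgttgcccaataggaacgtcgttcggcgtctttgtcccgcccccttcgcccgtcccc
Atp5h: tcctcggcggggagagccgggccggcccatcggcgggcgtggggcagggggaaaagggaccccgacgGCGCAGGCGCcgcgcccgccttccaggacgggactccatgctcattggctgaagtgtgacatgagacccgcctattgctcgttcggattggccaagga
Ndufb2: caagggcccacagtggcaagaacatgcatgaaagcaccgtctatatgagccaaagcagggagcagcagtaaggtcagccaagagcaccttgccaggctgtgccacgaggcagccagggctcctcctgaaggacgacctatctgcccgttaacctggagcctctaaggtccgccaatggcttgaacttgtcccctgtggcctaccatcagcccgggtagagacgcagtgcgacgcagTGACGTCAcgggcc
Cox6a1 had 2 NRF1 motifs in this stretch and Atp5h had 1. Of the 84 genes 69 matched a RefSeq promoter, with 75 windows in all, and both strands were searched. The NRF1 motif was in 24.0% of these windows, against 4.60% of 32851 windows of all genes and 9.76% of 12104 windows of the genes tested. The ETS motif CCGGAAG was in 21.3%, 8.86% and 17.7% of the windows in the same order, and the YY1 motif ATGGCGGC in 12.0%, 2.24% and 4.84%. TGACGTCA was in 5.33%, 1.79% and 3.06%. These shares describe letters in the windows, and no binding was measured.

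In adult M-MDSC against adult PMN-MDSC 27 of the 72 genes were higher and 1 lower, against 16.7% and 12.5% of all genes, with a median of 0.60 against -0.13. Without the batch 1 PMN-MDSC libraries, 7 were higher and 5 lower, against 1166 and 1241 of the 15926 genes tested in that fit. Without adult M-MDSC replicate 28, 5 were higher and none lower (median 0.29), and in batch 1 alone 1 was higher. Uqcrc1 was at 1.26 ± 0.16 (SE; adjusted p = 7.64e-06) and Ndufv1 at 1.43 ± 0.22 (SE; adjusted p = 8.12e-05). For both, all 3 adult M-MDSC libraries lay above all 6 adult PMN-MDSC ones: 138, 129 and 194 CPM against at most 66.9 CPM for Uqcrc1, and 51.6, 41.1 and 79.0 CPM against at most 26.4 CPM for Ndufv1. The 1 lower gene was Ndufa12, which lost its call with its copy summed in (-0.92, adjusted p = 0.229), while Cox7c then became higher (1.21, adjusted p = 0.00914). Cox6b2 was called higher at 4.32 in adults, with all 74 of its adult M-MDSC counts in replicate 28.

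In newborns 24 of the 72 genes were higher in M-MDSC than in PMN-MDSC and 1, Ndufs1, was lower, against 18.7% and 23.4% of all genes. The median was 0.43 against -0.13. Without the batch 1 PMN-MDSC libraries, 9 were higher and 5 lower, against 1233 and 3066 of the 15926 genes tested in that fit. Without newborn M-MDSC replicate 2, 12 were higher and 4 lower. With copies summed, Atp5g2 was called higher, at 1.22 (adjusted p = 0.00597). Uqcrc1 stood at 1.07, Ndufv1 at 1.31, Atp5a1 at 1.09 and Ndufb5, an accessory subunit of complex I, at 1.26, each with the groups apart. Ndufs1, the largest core subunit of complex I, was at -0.41 (adjusted p = 0.0365) and averaged 65.4 CPM in newborn PMN-MDSC and 49.1 CPM in newborn M-MDSC. Relative to library size alone it lay at 0.02 and 45 of the 72 genes were higher, against 3946 of all 12943 genes. Of the 72 genes, 15 were higher in M-MDSC at both ages, against 8.58% of all genes tested.

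Other mitochondrial gene lists are given for comparison, with no test between lists. Of 14 other nuclear genes of the respiratory chain 6 rose and 1 fell in newborn PMN-MDSC. The voltage-dependent channel genes Vdac1 and Vdac2 rose by 1.27 and 1.17 and Cyc1, the cytochrome of complex III, by 1.19, while Slc25a4, an exchanger of ATP and ADP, fell by 1.54. Of 16 genes of pyruvate dehydrogenase and the TCA cycle 8 rose and 1 fell. Dlst, a subunit of the oxoglutarate dehydrogenase, rose by 1.37 and Mdh2, malate dehydrogenase, by 1.16, while Idh3a, of isocitrate dehydrogenase, fell by 0.82. In M-MDSC 8 of the same 16 rose, Idh3a among them (0.94).

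Assembly factors help to build the complexes. Of 39 assembly factors 3 rose and 7 fell in newborn PMN-MDSC (median log2 fold change -0.0047). Ndufaf4, an assembly factor of complex I, fell by 3.78 on the log2 scale, from a mean of 11.4 CPM to 0.934 CPM, and Ndufaf3, which works beside it, rose by 1.37. Coa3, of complex IV assembly, rose by 1.19. Of 75 mitochondrial ribosomal protein genes 8 rose and 4 fell (median 0.05). Of 17 import genes 2 rose and 2 fell, with Tomm20, an outer membrane receptor, falling by 1.40. Of 16 factors of mitochondrial transcription and biogenesis 3 rose and 6 fell: Nrf1 rose by 0.57 and the receptor Esrra by 0.92, while the coactivators Ppargc1b and Pprc1 fell by 1.84 and 1.73. In newborn M-MDSC 13 of 75 mitochondrial ribosomal genes rose and 1 fell, and 2 of 39 assembly factors rose and 1 fell. Of the 16 transcription and biogenesis factors 1 rose there, Nrf1 by 0.98, and 2 fell, Myc by 1.64 and Pprc1 by 0.71. Over all genes, 27.1% were called higher and 20.5% lower in PMN-MDSC, and 15.9% and 14.3% in M-MDSC.

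The genes varied together across libraries to different degrees. Against the mean profile of the 72, centred per gene, single members had a median Pearson correlation of 0.757 over the 19 libraries, and 52 were over 0.5. The highest was Ndufb9 at 0.937, and 3 were below 0. Each member is part of the mean, and the libraries share group, batch and depth, so these values are a description. Outside the 84, the genes most like this profile were Gm10221 (0.966), Reep5 (0.949), Eif5a (0.948), Lrwd1 (0.941) and Hist1h1e (0.940). Gm10221 is the pseudogene row that shares all coding letters with Atp5l.

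Markers of other cells and states moved with age beside these genes. The summed level of 15 cell division genes in PMN-MDSC was 432 to 611 CPM for adults and 2089 to 2594 CPM for newborns, and 383 to 524 CPM and 2933 to 3635 CPM in M-MDSC; 13 of the 15 rose in PMN-MDSC and 14 in M-MDSC. The 12 erythroid genes of the table in PMN-MDSC summed to 306.5 ± 134 CPM for adults (SD, n = 6) and 4384 ± 1207 CPM for newborns (SD, n = 5), where 10 rose, and from the lowest to the highest library to 57.0 to 537 CPM and 36.0 to 2868 CPM in M-MDSC, where none was called. The 11 B cell genes all fell in both, from 4252 to 6684 CPM to 613 to 938 CPM in PMN-MDSC and from 1009 to 2441 CPM to 172 to 287 CPM in M-MDSC. Neutrophil genes summed to 631 to 1056 CPM in adult and 2642 to 12856 CPM in newborn M-MDSC. The 10 monocyte genes in PMN-MDSC summed to 1069 to 1639 CPM for adults and 1024 to 1238 CPM for newborns, where 2 rose and 5 fell. In M-MDSC they summed to 4879 to 6064 CPM and 3726 to 4583 CPM, where 6 fell. The 8 eosinophil genes in PMN-MDSC summed to 56.8 to 128 CPM for adults and 343 to 869 CPM for newborns, and to 7.13 to 53.0 CPM and 60.1 to 227 CPM in M-MDSC. Epx, Ear1 and Ear6 were at 0 in all adult PMN-MDSC libraries, and these 3 with Prg3 and the erythroid factor Klf1 in all adult M-MDSC ones. The 8 dendritic cell genes summed to 129 to 153 CPM for adults and 40.2 to 45.4 CPM for newborns in PMN-MDSC, and to 76.2 to 142 CPM and 12.9 to 86.8 CPM in M-MDSC, with 1 gene falling in each. The 12 T and NK cell genes summed to 72.3 to 146 CPM and 46.7 to 72.2 CPM in PMN-MDSC, where 3 fell, and to 103 to 339 CPM and 24.0 to 64.8 CPM in M-MDSC, where 10 fell. The part of these cells and states in the age differences was not tested.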

How the data were processed

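RNA of 19 libraries was sequenced as 50-base single-end reads of total RNA, per the labels' protocols. The deposited values are estimated counts per gene from RSEM 1.2.3 on mm10, per the submitters' processing notes, which also name DESeq2 without a role. For the aligner, annotation and strand setting, nothing is stated (not given in the sources used here). All deposited estimated counts were whole numbers, and rounding changed 0 values. Samples were grouped by age and cell type from the labels. Total counts per library differ strongly between the 2 batches, and 3 counts equal 0.990 to 3.29 CPM in batch 1 and 0.0601 to 0.197 CPM in batch 2.

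Counts were filtered by group (filterByExpr), TMM-scaled and fitted with group and batch in edgeR 4.0.16 under R 4.3.3, leaving 12943 genes and 14 residual degrees of freedom, with Benjamini-Hochberg adjustment over all genes. The SE is the log2 fold change divided by the root of the F statistic. The fit was tested on simulated data. DESeq2 1.42.0 and limma 3.58.1 gave alternatives, 36 settings in all. Genes were located by identifier in GENCODE M21 (GRCm38), and copies were found with blastn 2.17.0 at 95% identity over 100 bases. Genes were named by rule: the core and tissue-restricted lists; per complex, the 2 called members furthest from 0 in each direction for each age comparison and their difference, and the 5 furthest for each cell type comparison, at 10 CPM or more in the higher group; and up to 3 per direction of each other list. Other members, and those with copies, were named after their values were seen. A member is counted but not reported here by name or value. The members and lists were chosen with earlier results of these data known.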

Additional observations from a re-analysis of the deposited data

Results flagged for a closer look

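Across 138 groups and values examined, chance places about 1 in 20 groups past Dixon's limit for a sample that lies far from the others. Newborn M-MDSC replicate 2 lay far above its group in 5 values: the summed level of complex II (530.4 CPM), that of complex III (894 CPM), Uqcrc1 (385 CPM), Atp5e (65.4 CPM) and Ndufb2 (53.9 CPM). In newborn PMN-MDSC, replicate 39 lay low for Cox6b1 (47.8 CPM) and Cox5b (10.96 CPM), and replicate 2 lay high for Atp5sl (18.1 CPM). In adult PMN-MDSC, replicate 34 was the only library with counts of Cox6b2 (0.299 CPM), and replicate 1 stood apart for Ndufa6 (4.38 CPM). The age effect differed between the cell types, by edgeR's test of the difference, for Ndufa12 (5.37, M-MDSC minus PMN-MDSC on the log2 scale), Cox6a1 (-1.32), Ndufb2 (-1.26) and Atp5h (-1.08). None of these was called without the batch 1 PMN-MDSC libraries. With its copy summed in, Ndufa12 stood at 0.96 and was not called.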

How the results depend on the processing

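Counts are of the 72 tested genes called higher and lower. Scaling by library size and summing of copies were chosen after seeing the data. In newborn against adult PMN-MDSC (41 and 1) the counts were 15 and 6 by library size, 26 higher by upper-quartile scaling, 17 in batch 1, 22 without the batch 1 PMN-MDSC libraries, 3 higher with a 2-fold minimum, and 3 lower on the compared groups alone. In M-MDSC (24 and 2) they were 5 and 0 on the compared groups alone, 10 and 5 in batch 2, and 2 and 0 with a 2-fold minimum; 0 were lower in batch 1, by limma-voom, with no filter and without the batch 1 PMN-MDSC libraries, and 1 by library size, with no batch term and with a batch coefficient per cell type. For the difference of age effects (1 and 3) they were 8 and 0 by library size, 4 and 1 by upper-quartile scaling, 3 and 14 in batch 2, 2 and 0 by limma-voom, and 0 and 0 without the batch 1 PMN-MDSC libraries and with a 2-fold minimum. There 0 were lower in batch 1; 6 were higher by DESeq2, 2 with its size factors and with a batch coefficient per cell type, and 0 with no filter and with copies summed. In adult M-MDSC against PMN-MDSC (27 and 1) they were 1 higher in batch 1 and with a 2-fold minimum, 3 and 0 by limma-voom, 7 and 5 without the batch 1 PMN-MDSC libraries, 16 and 3 with no filter and 15 higher with a batch coefficient per cell type. There 7 were lower in batch 2, 4 by DESeq2, 2 with its size factors, by library size and with no batch term, and 0 with copies summed. In newborns (24 and 1) they were 45 and 0 by library size, 13 and 0 in batch 1, 11 and 5 in batch 2, 9 and 5 without the batch 1 PMN-MDSC libraries, 14 and 0 with no filter, and 0 and 0 with a 2-fold minimum. There 3 were lower by limma-voom, and 0 by upper-quartile scaling, with a batch coefficient per cell type and on the compared groups alone. The cause was not tested.

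Leaving out 1 library at a time gave 34 to 46 higher and 1 to 1 lower in PMN-MDSC, 16 to 31 and 0 to 2 in M-MDSC, 0 to 4 and 0 to 6 for the difference, 5 to 33 and 0 to 4 in adults, and 12 to 29 and 0 to 4 in newborns. Where this left 1 adult M-MDSC library in a batch, that library was assumed to vary like the others. The summed level in adult and newborn PMN-MDSC was 2771 and 2909 CPM without TMM scaling, 2607 and 3525 CPM with DESeq2 size factors, and 2576 and 3964 CPM with copies summed.

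Replicate numbers were shared only in batch 1. Deviations of libraries with the same number correlated at -0.0472 to 0.1815 over 12 pairs (median 0.0496). The 25 batch 1 pairs with other numbers lay at -0.1815 to 0.075 (median -0.0143). Deviations were taken within a few libraries each, so these values cannot decide whether a number marks a shared source. With a replicate block in batch 1, 14 genes were higher and 1 lower in PMN-MDSC, 21 and 0 in M-MDSC, 0 and 0 for the difference, 5 and 1 in adults, and 16 and 0 in newborns.

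Single genes that changed direction by library size in PMN-MDSC were Atp5a1 (-0.17), Cox6c (-0.42), Ndufs1 (-0.17), Sdha (-0.42) and Uqcrfs1 (-0.10), and in newborn M-MDSC against PMN-MDSC Ndufs1 (0.023). With copies summed, Cox7c stood at 1.14 in PMN-MDSC and 1.21 in adults. Uqcrc2 in M-MDSC was at -0.13 in batch 2. Cox6b2 in adults ranged from -2.46 (without adult M-MDSC replicate 28, the only one of that group with counts) to 7.52 (without adult PMN-MDSC replicate 34, likewise). Of 7189 gene and setting pairs, 6105 kept direction and side of the threshold. Depth limits genes near 3 counts in batch 1.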
